A study of Homo sapiens with 12 samples.

Results

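A set of 10 genes of the YAP-TEAD pathway were followed through GOT1 knockdown in a pair of pancreatic cancer cell lines. They are CYR61, CTGF, ANKRD1, AMOTL1, AMOTL2, AJUBA, LATS2, NUAK2, TEAD1 and YAP1, 10 of the 58721 genes in the tables. They were picked by name as pathway genes, and partly from the response of MIA PaCa-2 to doxycycline (dox), in which CYR61 and NUAK2 were higher. The dox response of MIA PaCa-2 is therefore given as a description with no test. The response of Pa-Tu-8902, which is not part of the stated choice, was tested. Earlier results of these data were known when the genes were chosen, so that test is not fully independent of the choice.

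YAP1 is a transcriptional coactivator that has no DNA-binding domain of its own and acts on genes through the TEAD family of DNA-binding proteins, TEAD1 among them. The Hippo kinase cascade (MST kinases, then LATS kinases) phosphorylates YAP1 and its paralog TAZ, which keeps them in the cytoplasm, so that much of the control acts on the proteins and not on their transcripts. Active YAP-TEAD raises CYR61, CTGF and ANKRD1, which are widely read as its output, and also raises several of its own restraints, including LATS2 and the angiomotin family members AMOTL1 and AMOTL2. In pancreatic ductal adenocarcinoma YAP1 is known as a driver of growth.

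GOT1 is the cytosolic aspartate aminotransferase. Pa-Tu-8902 and MIA PaCa-2 (named Tu8902 and MiaPaCa2 in the sample labels) are human pancreatic cancer lines, each carrying a dox-inducible short hairpin RNA against GOT1 that was delivered by lentivirus and kept by drug selection. Each line was profiled by polyA RNA-seq without dox (untreated, labelled control) and after 5 days of dox (GOT1 knockdown), in 3 libraries per group and 12 in all. Every library carries the hairpin and no library with another hairpin was analysed here, so effects of dox itself and of GOT1 loss cannot be told apart. The labels do not say whether the 3 libraries of a group came from separate cultures, so p-values measure the spread between these libraries, which may be technical. In bulk RNA, fewer cells with a transcript and less transcript per cell cannot be told apart.

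Depth ran from 26226537 to 43406137 counts per library. GOT1 fell in both lines, from 4184 ± 297 to 168 ± 23.1 normalized counts in Pa-Tu-8902 (SD, n = 3). The fall in MIA PaCa-2 was from 2198 ± 134 to 79.8 ± 13.8 normalized counts. A normalized count is the count of a gene scaled to the mean effective library size of its line. Of 6 epithelial markers, all 6 reached a mean of 1 TPM (RSEM's transcript abundance, scaled for length and depth) in each Pa-Tu-8902 group and 3 did in each MIA PaCa-2 group, where EPCAM, CDH1 and KRT7 were near 0. The summed level of these markers was 9218 to 10311 TPM in untreated and 7888 to 8907 TPM in dox libraries of Pa-Tu-8902, against 2716 to 2983 and 2829 to 3060 TPM in MIA PaCa-2. Single markers did not all go with these sums. In Pa-Tu-8902 CDH1 had 60.0 to 70.2 TPM untreated and 124 to 139 TPM with dox, and EPCAM 543 to 553 and 645 to 699 TPM. KRT19 in MIA PaCa-2 had 384 to 413 TPM untreated and 128 to 132 TPM with dox. Among 6 fibroblast markers, 1 reached a mean of 1 TPM in each group. It was COL1A1 in Pa-Tu-8902, where the list summed to 3.82 to 6.38 TPM untreated and 18.04 to 21.7 TPM with dox, and COL1A2 in MIA PaCa-2, where it summed to 192 to 248 and 340 to 398 TPM. COL3A1, DCN and LUM were at or near 0 in every library, and no acinar, leukocyte or endothelial marker reached a mean of 1 TPM in any group. The part of these marker levels in the results below was not tested.

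The promoters of the 3 genes that passed the test in Pa-Tu-8902 are shown because they hold 2 or 3 copies of GGAATG, the core motif bound by TEAD proteins. Each line gives the 250 bases before the annotated start of the gene, 5′ to 3′ on the gene's strand, from RefSeq (GRCh38.p14), with the motif in capitals on either strand. They lie at chr6:131951373-131951622 for CTGF, chr10:90921088-90921337 for ANKRD1 and chr1:205321746-205321995 for NUAK2, all on the minus strand and just upstream of the first exon.
CTGF: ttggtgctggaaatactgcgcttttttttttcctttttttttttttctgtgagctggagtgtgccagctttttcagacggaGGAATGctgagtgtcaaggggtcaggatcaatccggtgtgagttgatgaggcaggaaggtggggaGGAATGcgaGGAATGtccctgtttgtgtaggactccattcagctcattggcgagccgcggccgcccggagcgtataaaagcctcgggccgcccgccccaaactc
ANKRD1: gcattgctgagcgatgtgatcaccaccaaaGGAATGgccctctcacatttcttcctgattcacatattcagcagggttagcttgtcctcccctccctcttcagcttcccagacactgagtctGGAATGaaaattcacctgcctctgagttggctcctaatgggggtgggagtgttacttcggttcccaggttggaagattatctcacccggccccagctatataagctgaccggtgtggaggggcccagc
NUAK2: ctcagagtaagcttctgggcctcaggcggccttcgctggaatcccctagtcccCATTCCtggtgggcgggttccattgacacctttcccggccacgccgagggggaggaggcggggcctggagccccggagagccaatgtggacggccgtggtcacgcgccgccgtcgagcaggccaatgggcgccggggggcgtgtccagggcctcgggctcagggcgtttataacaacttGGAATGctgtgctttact

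In the CTGF promoter the 3 copies began 169, 104 and 95 bases before the start. The ANKRD1 promoter held 2 copies, 220 and 128 bases before the start. NUAK2 also held 2, of which the one that begins 197 bases before the start lies on the reverse strand and reads CATTCC here, and the other begins 18 bases before the start. Promoter windows of 300 bases (250 before to 50 after the start) were held for 8 of the 10 genes, all but CYR61 and TEAD1. Of these 8, 7 had at least 1 copy of GGAATG on either strand in a window, the exception being AMOTL1. Counted by window, 7 of their 10 windows had one, while 14.03% of all 35116 windows of this length did. At least 2 copies were found in 1.373% of all windows and at least 3 in 0.1281%. AMOTL2 and AJUBA each had 1 copy in the second of their 2 windows, YAP1 had 1 beginning 162 bases before its start, and LATS2 had 1 beginning 10 bases after it. The genes were picked by name as pathway genes, so nothing is read from their share of windows with a copy. A match to these letters is a description of the window and no evidence of binding.

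In Pa-Tu-8902 the 10 genes moved in both directions. NUAK2 and ANKRD1 rose 2.65-fold and 1.76-fold, and CTGF fell 2.48-fold. CYR61, the closest relative of CTGF in the list, did not pass the test. By edgeR's quasi-likelihood test, 3 of the 10 genes passed an adjusted p of 0.01 with at least 1.5-fold (2 higher and 1 lower), beside 16.3% of all 14949 genes tested in the line (9.22% higher and 7.12% lower). The median log2 fold change of the 10 genes was 0.14, against 0.0014 for all genes tested, and 8 of the 10 had a positive sign. Among these 8, CYR61, AMOTL2, TEAD1 and YAP1 did not reach an adjusted p of 0.01. No set test was run, so nothing is read from this median or these signs.

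In MIA PaCa-2 the 2 genes that entered the choice had the largest fold changes of the 9 with enough counts. NUAK2 was 8.77-fold and CYR61 3.80-fold higher in the dox libraries, and TEAD1, at 1.67-fold, was the only other gene past 1.5-fold. No gene of the list was lower by 1.5-fold, beside 11.2% of all genes in the line. Both counts turn on single libraries, since with 1 library left out TEAD1 ranged from 0.579 to 0.823 on the log2 scale, AMOTL2 from 0.480 to 0.596, LATS2 from 0.498 to 0.608 and CTGF from -0.626 (without untreated replicate 1) to -0.318, around a limit of 0.585 either way. Thus 3 of the 9 genes with enough counts were at least 1.5-fold higher, beside 7.42% of all 14589 genes, and nothing is read from that count because the choice used this contrast. The median log2 fold change was 0.55 over the 9 genes and -0.0089 over all genes, and 6 of the 9 had a positive sign. For the same reason nothing is read from this median or these signs.

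**Figure D1:**
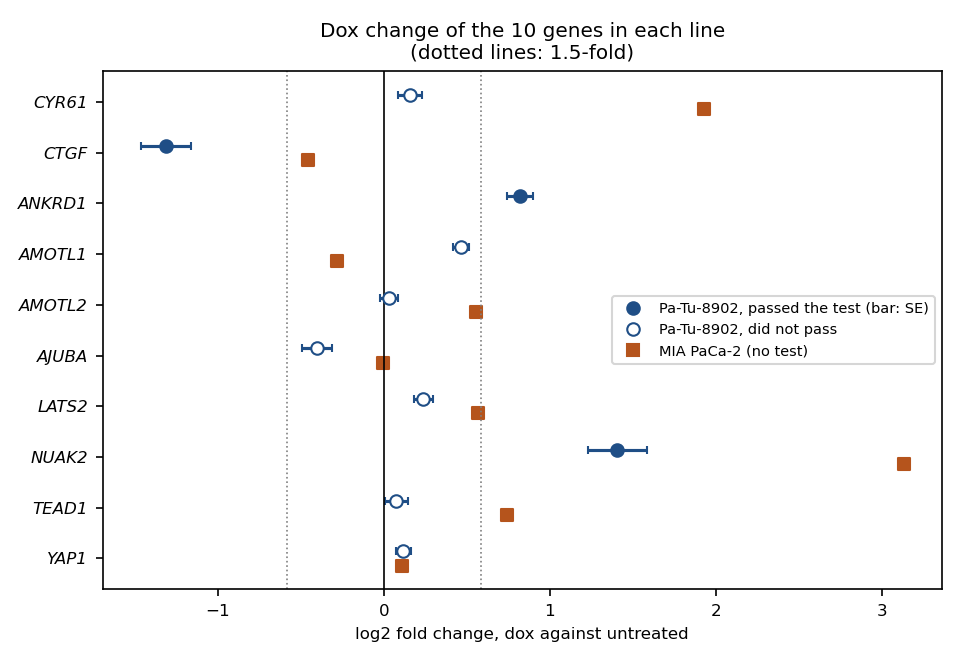
Log2 fold change (x axis, dox against untreated) of each of the 10 genes (y axis), with circles and SE bars for Pa-Tu-8902 and squares with no error bar for MIA PaCa-2, where no test was run. In Pa-Tu-8902 CTGF lies at -1.31 and NUAK2 at 1.41, whereas in MIA PaCa-2 NUAK2 lies at 3.13 and CYR61 at 1.93; ANKRD1 has no MIA PaCa-2 point because its counts were too low.

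The coactivator itself had small fold changes in both lines. YAP1 in Pa-Tu-8902 had 11530, 12115 and 11506 normalized counts untreated and 12695, 12475 and 12983 with dox. The groups did not overlap, but the log2 fold change of 0.12 (SE 0.05, edgeR adjusted p = 0.0548) was small and did not pass. In MIA PaCa-2 the values were 2949, 2458 and 2643 untreated and 2972, 2881 and 2841 with dox, which overlap, at a log2 fold change of 0.11.

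TEAD1, a DNA-binding partner of YAP1, had groups that overlapped in Pa-Tu-8902 and lay apart in the other line. In Pa-Tu-8902 it had 1969, 2073 and 1746 normalized counts untreated and 2152, 1940 and 2017 with dox, so the groups overlap (log2 fold change 0.08, SE 0.07, edgeR adjusted p = 0.382). In MIA PaCa-2 it had 2403, 1669 and 2437 untreated and 3777, 3775 and 3359 with dox, and every dox library was above every untreated one. Untreated replicate 2 was the lowest of the line, and without it the log2 fold change went from 0.74 to 0.579, just under the 1.5-fold limit of 0.585.

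CYR61 (renamed CCN1, at chr1:85580761-85584589 in GRCh38) and CTGF (renamed CCN2, at chr6:131948176-131951372) encode secreted matricellular proteins of the CCN family, which bind integrins and act on adhesion and matrix. CYR61 in MIA PaCa-2 had 2783, 2839 and 2650 normalized counts untreated and 10898, 10388 and 10143 with dox. The dox values lay far above the untreated ones, with means of 2757 ± 97.4 and 10477 ± 385 (SD, n = 3). In Pa-Tu-8902 it had 897, 1015 and 1047 untreated and 1032, 1150 and 1116 with dox. These groups overlap, and the log2 fold change of 0.16 (SE 0.07, edgeR adjusted p = 0.0954) did not pass, although in TPM the dox values of 21.0 to 22.8 lay above the untreated values of 17.3 to 19.6.

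CTGF did not follow CYR61 in either line. In Pa-Tu-8902 it had 158, 158 and 190 normalized counts untreated and 63.0, 63.1 and 78.3 with dox. Every dox library lay below every untreated one, and CTGF fell by 1.31 on the log2 scale (SE 0.15, edgeR adjusted p = 4.20e-05). In MIA PaCa-2 the values were 112, 154 and 176 untreated and 124, 108 and 91.1 with dox. These overlap, with untreated replicate 1 below dox replicate 1, at a log2 fold change of -0.46. CTGF was thus at a low level throughout, at no more than 3.65 TPM in any library.

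ANKRD1, a nuclear ankyrin-repeat protein of the cardiac and muscle stress response, was well above the detection floor in Pa-Tu-8902 only. In Pa-Tu-8902 it had 488, 472 and 534 normalized counts untreated and 867, 824 and 945 with dox. The groups stand well apart, and ANKRD1 rose by 0.82 on the log2 scale (SE 0.08, edgeR adjusted p = 1.09e-05). In MIA PaCa-2 the 3 untreated libraries held 2, 1 and 1 counts and the 3 dox libraries 0, 5 and 2. That is at or near the detection floor of 3 counts per library, so no fold is given. ANKRD1 and CTGF, both standard readouts of YAP-TEAD, thus passed the test in Pa-Tu-8902 in opposite directions.

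NUAK2, an AMPK-related kinase and YAP target that acts on actomyosin and is known to restrain LATS kinases, was higher with dox in both lines. In Pa-Tu-8902 it had 48.7, 61.1 and 80.0 normalized counts untreated and 163, 158 and 185.1 with dox. No untreated library reached the dox range, and NUAK2 rose by 1.41 on the log2 scale (SE 0.18, edgeR adjusted p = 7.55e-05). In MIA PaCa-2 it had 50.1, 39.0 and 22.7 untreated and 328, 357 and 304 with dox. The means of 37.3 ± 13.8 and 329 ± 26.7 (SD, n = 3) give a log2 fold change of 3.13. Both untreated means are low, so the folds rest on few untreated counts. The difference between the lines was not tested for this gene or any other of the 10.

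**Figure D2:**
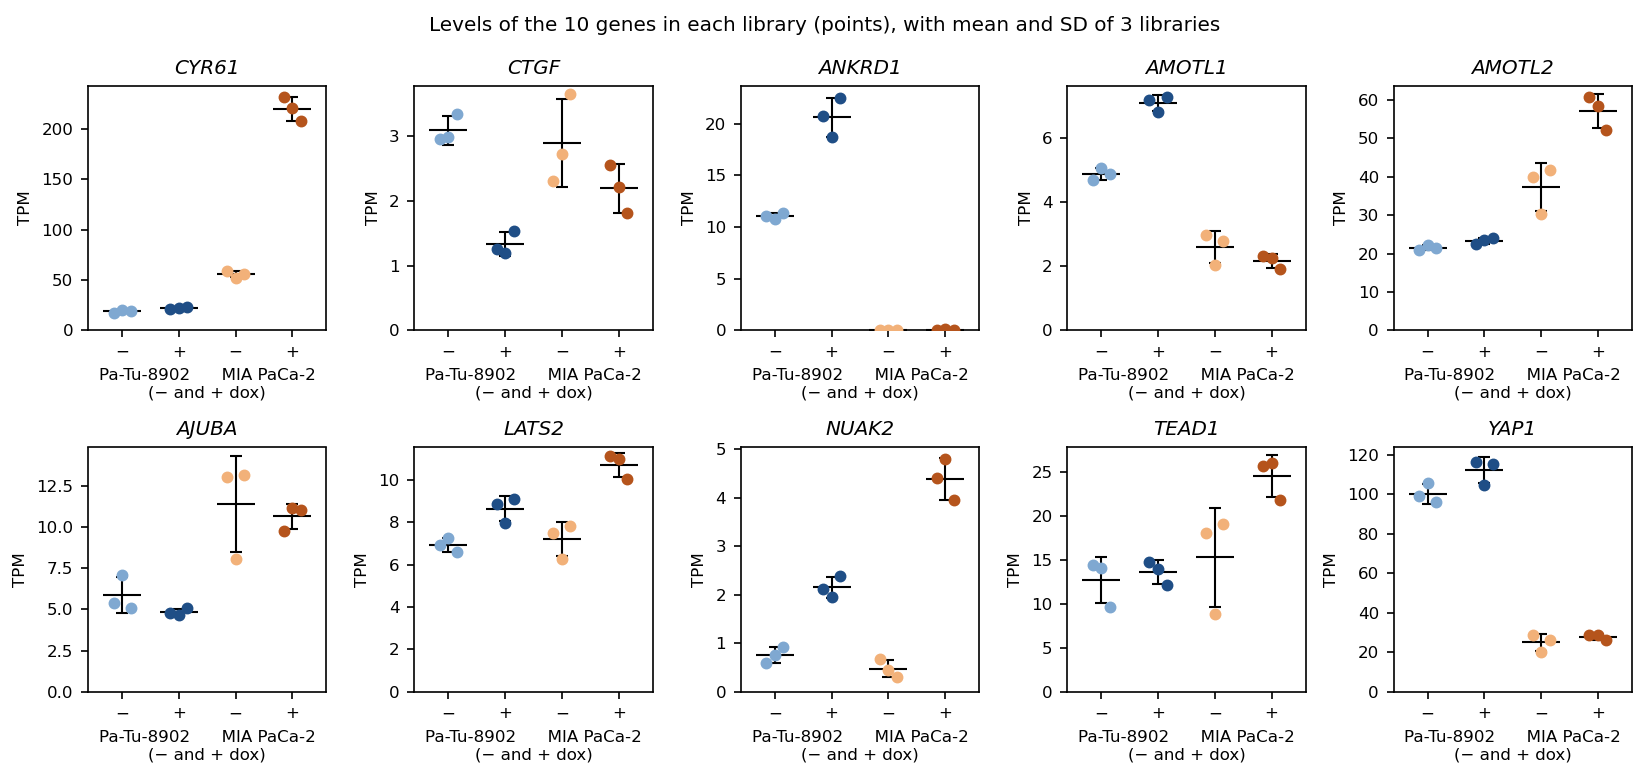
TPM (y axis, a separate linear scale from 0 for each gene) of the 10 genes in each of the 12 libraries (points), with the mean (wide bar) and SD (error bar) of each group of 3, without (-) and with (+) dox. CYR61 reaches 208 to 232 TPM in MIA PaCa-2 with dox against 52.3 to 58.6 untreated, CTGF is lower with dox in Pa-Tu-8902, and ANKRD1 is near 0 in MIA PaCa-2.

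A further 4 of the genes encode proteins that act on the pathway, AMOTL1, AMOTL2 and LATS2 as restraints and AJUBA against the LATS kinases. The angiomotin-like proteins AMOTL1 and AMOTL2 bind YAP1 and hold it at junctions and actin, AJUBA is a LIM protein that binds LATS kinases and blocks their action, and LATS2 is the kinase that phosphorylates YAP1. None of these 4 passed both limits in Pa-Tu-8902, though 3 of them, AMOTL1, AJUBA and LATS2, had an adjusted p under 0.01 with a change under 1.5-fold.

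AMOTL1 in Pa-Tu-8902 had 1022, 1067 and 1047 normalized counts untreated and 1437, 1440 and 1455 with dox, groups that do not overlap (log2 fold change 0.47, SE 0.05, edgeR adjusted p = 2.61e-05). Its MIA PaCa-2 values were 599, 430 and 544 untreated and 452, 444 and 402 with dox, which overlap, at -0.28. AMOTL2 had overlapping groups in Pa-Tu-8902, with means of 2291 ± 107 untreated and 2344 ± 106 with dox (SD, n = 3; log2 fold change 0.03, edgeR adjusted p = 0.654). For this gene MIA PaCa-2 gave 3794, 3365 and 3987 untreated against 5709, 5552 and 5110 with dox, with no overlap, at 0.55. The angiomotin-like gene with the larger log2 fold change was thus AMOTL1 in Pa-Tu-8902 and AMOTL2 in MIA PaCa-2. By level, AMOTL2 had more normalized counts than AMOTL1 in both lines.

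LATS2 had 930, 963 and 949 normalized counts untreated and 1124, 1061 and 1171 with dox in Pa-Tu-8902, with no overlap (log2 fold change 0.24, SE 0.06, edgeR adjusted p = 0.00594). The MIA PaCa-2 values were 916, 812 and 955 untreated and 1360, 1348 and 1280 with dox, at 0.57. The dox libraries were above the untreated ones in both lines. AJUBA differed from it: Pa-Tu-8902 gave 478, 512 and 491 untreated and 356, 351 and 416 with dox, with every dox library lower (log2 fold change -0.40, SE 0.09, edgeR adjusted p = 0.00332). Its MIA PaCa-2 values of 909, 842 and 952 untreated and 855, 940 and 899 with dox overlap, at -0.01. Without untreated replicate 2 of MIA PaCa-2, which had the lowest value of its group for AMOTL1, AMOTL2, AJUBA, LATS2, TEAD1 and YAP1, the log2 fold changes of AMOTL2 and LATS2 were 0.48 and 0.50. Both passed 1.5-fold without untreated replicate 3 or dox replicate 3, and LATS2 also without untreated replicate 1.

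Counted over the 10 genes, dox and untreated libraries did not overlap for 7 in Pa-Tu-8902, beside 58.5% of all genes tested there. In MIA PaCa-2 they did not overlap for 5 of 9, beside 52.9%. Nothing is read from the MIA PaCa-2 count, which includes CYR61 and NUAK2. CTGF, ANKRD1, AMOTL1, AJUBA and YAP1 were apart in Pa-Tu-8902 and overlapped or were too low in MIA PaCa-2, CYR61, AMOTL2 and TEAD1 the other way round, and LATS2 and NUAK2 were apart in both.

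Before dox the levels of some of these genes differed between the lines, which was no more common among them than among all genes. On the TPM scale, which is per transcript length and so allows a comparison between genes, YAP1 led in untreated Pa-Tu-8902 at 100 ± 4.97 (SD, n = 3) and was 4.01 times its level in MIA PaCa-2, while CYR61 led in MIA PaCa-2 at 55.8 and was 2.998 times its level in Pa-Tu-8902. AMOTL2 and AJUBA were 1.74 and 1.95 times higher in MIA PaCa-2 and AMOTL1 was 1.88 times higher in Pa-Tu-8902. ANKRD1 had 10.8 to 11.4 TPM in Pa-Tu-8902, against 0.02 to 0.05 TPM in MIA PaCa-2. These 6 genes had no overlap between the untreated lines, beside 75.1% of all 16544 genes with enough counts, and the levels of CTGF, LATS2, NUAK2 and TEAD1 overlapped.

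In order of mean untreated TPM, Pa-Tu-8902 had YAP1 (100), AMOTL2 (21.5), CYR61 (18.6), TEAD1 (12.7), ANKRD1 (11.0), LATS2 (6.91), AJUBA (5.87), AMOTL1 (4.87), CTGF (3.09) and NUAK2 (0.76). Library values of neighbours in that order overlapped for TEAD1 with ANKRD1 and for LATS2 with AJUBA, and for no other neighbours. In MIA PaCa-2 the order was CYR61 (55.8), AMOTL2 (37.4), YAP1 (25.0), TEAD1 (15.3), AJUBA (11.4), LATS2 (7.197), CTGF (2.90), AMOTL1 (2.59), NUAK2 (0.477) and ANKRD1 (0.03). Here the neighbours that overlapped were TEAD1 with AJUBA and CTGF with AMOTL1. With dox CYR61 was the highest of the 10 genes in MIA PaCa-2 by a wide margin, at 220 TPM against 57.2 for AMOTL2, and YAP1 stayed the highest in Pa-Tu-8902 at 112 TPM.

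CTGF, ANKRD1 and NUAK2 each have 1 annotated transcript in the tables. CYR61 has 2, and CYR61-201 held 98.9% to 99.6% of its TPM in the 4 group means. YAP1 has 11 transcripts, of which YAP1-201 was the most abundant on average, with 44.1% ± 2.49 of the YAP1 level untreated and 46.5% ± 5.30 with dox in Pa-Tu-8902, against 31.3% ± 8.09 and 38.1% ± 5.23 in MIA PaCa-2 (SD, n = 3). AMOTL1-203 held 68.7% to 69.0% of AMOTL1 in the untreated and 75.3% to 83.0% in the dox libraries of Pa-Tu-8902, which do not overlap, while in MIA PaCa-2 the ranges of 47.7% to 73.3% and 54.1% to 86.2% do. AJUBA-203 made up 27.1% of AJUBA in untreated Pa-Tu-8902 and 0.455% in untreated MIA PaCa-2 on average. Such shares are estimates made by RSEM from reads that mostly fit several transcripts. Those given here come from a larger set of transcripts, and no difference in a share was tested.

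Beyond the 10, 68 further genes were followed, of which 26 are pathway components and 21 are other YAP or TAZ targets. Another 14 are genes of the actin cytoskeleton, and 7 are paralogs of some of the 10. All 68 were listed by role, but with earlier results of these data known. Of the 59 tested in Pa-Tu-8902, 7 rose and 12 fell, and of the 55 tested in MIA PaCa-2, 4 rose and 2 fell. Their median log2 fold changes were -0.05 and 0.13, against 0.0014 and -0.0089 for all genes. The counts of this list and of its sublists are read against all genes of the line, of which 16.3% passed in Pa-Tu-8902 (9.22% higher, 7.12% lower), against 12% in MIA PaCa-2 (4.36% higher, 7.64% lower).

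In the kinase cascade 1 of the upper kinases passed in both lines. STK3, which encodes MST2, fell from 1977 ± 71.2 to 1000 ± 36.7 normalized counts in Pa-Tu-8902 (log2 fold change -0.98, SE 0.05, edgeR adjusted p = 2.27e-07). The fall in MIA PaCa-2 was from 623 ± 27.1 to 327 ± 14.2 (-0.93, SE 0.08, adjusted p = 6.45e-06). It was the only gene of the 6 kinases and adaptors (STK3, STK4, SAV1, LATS1, MOB1A and MOB1B) to pass in either line. Its 3 dox libraries lay below its 3 untreated libraries in both lines, and the 2 changes differed by 0.06 on the log2 scale (SE 0.09, adjusted p = 0.735).

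Upstream regulators passed by edgeR in Pa-Tu-8902, with 1 of 11 higher and 1 lower. In MIA PaCa-2 0 of 12 passed by edgeR, 5 had an unadjusted p under 0.05, 1 (FAT4) passed by DESeq2 and 0 by limma on TPM. FAT4, a giant protocadherin, rose from 124, 139 and 99.2 normalized counts to 714, 627 and 674 (log2 fold change 2.47, SE 0.12, adjusted p = 9.57e-08). FRMD6, a FERM-domain protein, fell from 820 ± 29.6 to 498 ± 35.0 (-0.72, adjusted p = 1.73e-05). In MIA PaCa-2 FAT4 had 92.8, 60.6 and 111 untreated and 52.8, 49.3 and 39.9 with dox (-0.91, adjusted p = 0.0111), past the fold limit but not the p limit by edgeR.

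Among coactivators, TEADs and VGLL cofactors, WWTR1, which encodes TAZ, fell in Pa-Tu-8902 from 5161 ± 93.8 to 3127 ± 72.2 normalized counts (log2 fold change -0.72, SE 0.05, edgeR adjusted p = 5.13e-07). TEAD2 rose there from 427 ± 26.5 to 764 ± 66.2 (0.84, SE 0.09, adjusted p = 1.70e-05). In MIA PaCa-2 WWTR1 was also lower with dox, with no overlap, but under the fold limit (log2 fold change -0.39, SE 0.06, edgeR adjusted p = 3.85e-04). Its adjusted p was not under 0.01 in every alternative. TEAD3 was the only gene of 5 to pass in MIA PaCa-2, rising from 678 ± 80.2 to 1040 ± 28.5 (0.62, SE 0.09, adjusted p = 2.23e-04). Without untreated replicate 2, TEAD3 was at 0.52 and no longer past 1.5-fold. Among TEAD1 to TEAD4, the largest log2 fold changes in MIA PaCa-2 were those of TEAD1 (no test) and TEAD3. In Pa-Tu-8902 the largest was that of TEAD2, and TEAD3 had 0.33 there. By untreated level TEAD4 was the highest of the family in both lines, at 478 TPM in Pa-Tu-8902 and 54.6 TPM in MIA PaCa-2.

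Other target genes, chosen as known outputs of YAP or TAZ, were again mixed. In Pa-Tu-8902 10 of 19 passed, 4 higher (CRIM1, CCDC80, TGFB2 and EDN1) and 6 lower, among them AXL, DOCK5, ARHGAP29, TNFRSF12A and GADD45A. In MIA PaCa-2 3 of 17 passed, AXL and CRIM1 higher and DOCK5 lower. CRIM1, a membrane protein that binds BMPs, rose in both lines by 0.68 and 0.69 on the log2 scale (adjusted p = 6.71e-07 and 4.24e-05), and DOCK5 fell by 0.94 and 1.26. With limma on TPM CRIM1 did not pass in MIA PaCa-2 (adjusted p = 0.0114), which left 2 of 17 there.

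AXL, a receptor tyrosine kinase, went opposite ways. In Pa-Tu-8902 it had 4546, 4865 and 5049 normalized counts untreated and 1847, 2164 and 2005 with dox (log2 fold change -1.26, SE 0.07, edgeR adjusted p = 1.51e-07). In MIA PaCa-2 it had 1780, 1610 and 1782 untreated and 3921, 4140 and 3787 with dox (1.20, SE 0.07, adjusted p = 2.52e-07). Every dox library was below the untreated range in Pa-Tu-8902 and above it in MIA PaCa-2.

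**Figure D3:**
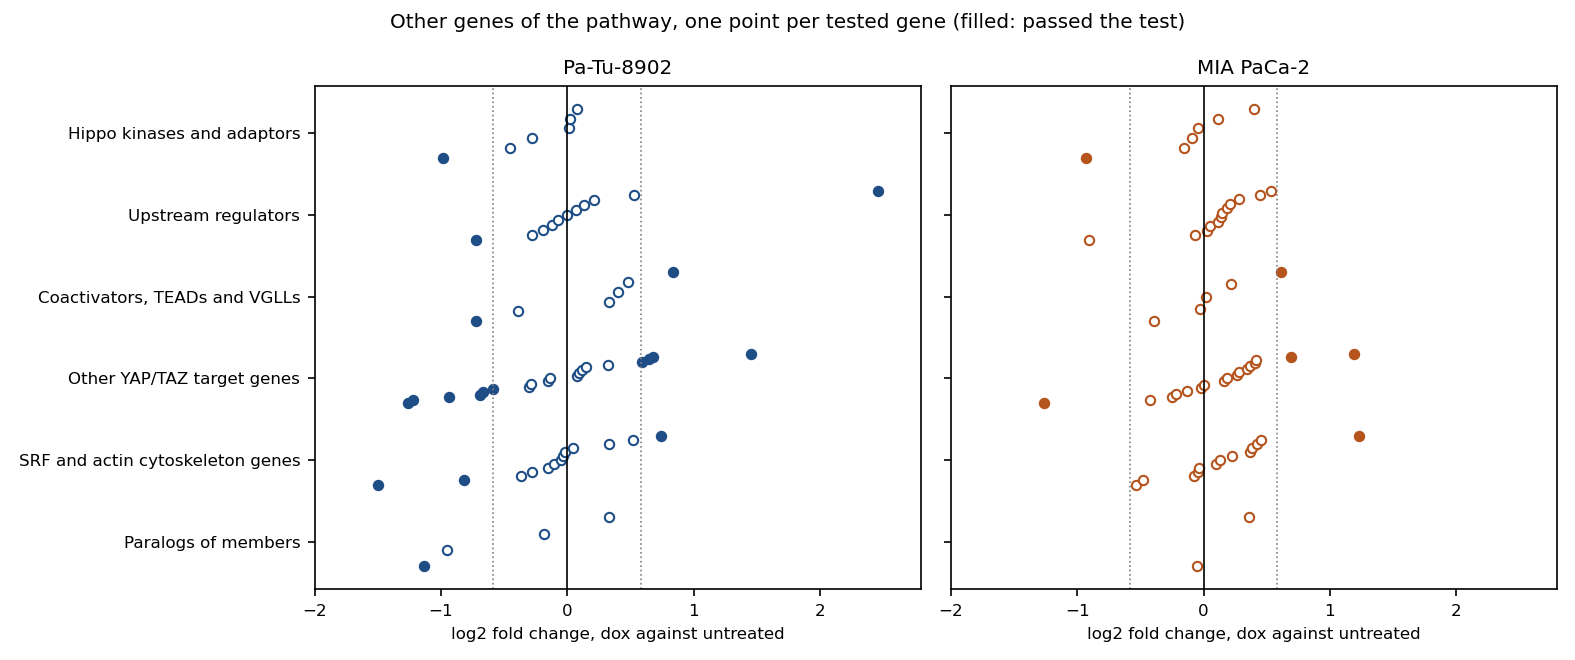
Log2 fold change (x axis, dox against untreated) of every tested gene in 6 lists of pathway and related genes (y axis). Each gene is 1 point, filled where edgeR's adjusted p was under 0.01 and the change at least 1.5-fold (dotted lines). In Pa-Tu-8902 filled points lie on both sides of 0, 7 higher and 12 lower, against 4 higher and 2 lower in MIA PaCa-2.

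Genes of the actin cytoskeleton, many of them targets of serum response factor and often studied beside YAP, passed in 3 of 13 cases in Pa-Tu-8902, against 1 of 13 in MIA PaCa-2. FLNA, which crosslinks actin, fell from 21249 ± 874 to 7511 ± 341 normalized counts in Pa-Tu-8902 (2.83-fold lower, edgeR adjusted p = 1.65e-08), and TPM4, a tropomyosin, fell there by 0.82. TAGLN, an actin-binding protein of smooth muscle, rose in both lines, with log2 fold changes of 0.74 and, for MIA PaCa-2, 1.23. FLNA in MIA PaCa-2 had overlapping groups (-0.04, adjusted p = 0.734). Of the paralogs of CYR61, CTGF, NUAK2 and ANKRD1, NOV, the CCN family member also named CCN3, fell in Pa-Tu-8902 from 203 ± 14.7 to 92.3 ± 8.54 (-1.14, adjusted p = 3.41e-05) and had 0 counts in every MIA PaCa-2 library. It was the only gene of 4 tested paralogs to pass there. In MIA PaCa-2 0 of 2 passed by edgeR, DESeq2 or limma, and 0 had an unadjusted p under 0.05.

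Whether the dox response differed between the lines was tested for the listed genes outside the 10, as the interaction of line and dox over all 12 libraries. It passed for 10 of 61 listed genes, beside 10.4% of all 16544 genes tested. The change was more positive in MIA PaCa-2 for 7, among them AXL, FLNA, FRMD6, SAV1, TNFRSF12A and TEAD4, and in Pa-Tu-8902 for FAT4, CCDC80 and TEAD2. TNFRSF12A was named after its value was seen. AXL had the largest test statistic of these, with a difference of 2.46 on the log2 scale (SE 0.10, edgeR adjusted p = 4.51e-11). STK3, TEAD3, CRIM1 and DOCK5 did not reach an adjusted p of 0.01, and WWTR1 did (adjusted p = 0.00358) with a difference of 0.33, under the fold limit.

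**Figure D4:**
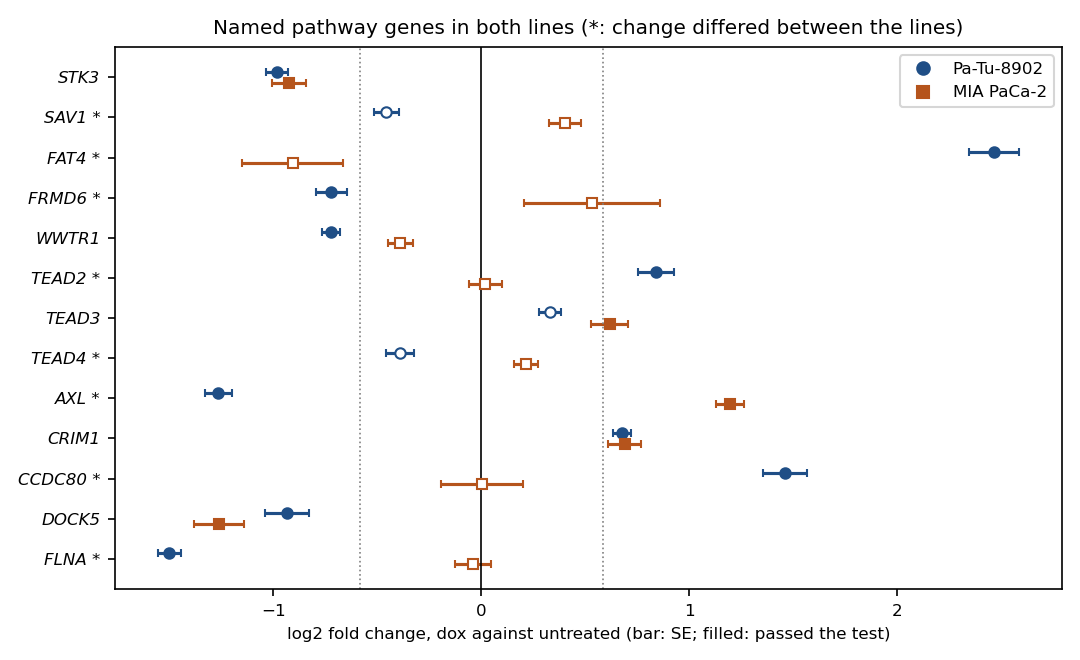
Log2 fold change (x axis, dox against untreated, with SE bars) of 13 listed genes (y axis) in Pa-Tu-8902 (circles) and MIA PaCa-2 (squares). Points are filled where the change passed the test in that line, and an asterisk marks genes whose change differed between the lines. AXL lies at -1.26 and 1.20 and FAT4 at 2.47 and -0.91, while the points of STK3 and CRIM1 lie close together.

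Across the 12 libraries, centred within each line on log2 CPM, the genes closest to CYR61 among the 13109 tested in both lines were SLC5A6 (Pearson r = 0.997), TBC1D2 (0.993) and NCEH1 (0.992). Those closest to NUAK2 were FBXO33 (0.985), TBCCD1 (0.984) and MORF4L1 (0.980), and those closest to CTGF were AXIN1 (0.989), RIC8A (0.974) and HAGHL (0.966). The 12 values share 6 libraries with and 6 without dox, so a high r mainly records a like pattern over the 4 groups. NCEH1 had a log2 fold change of 0.23 in Pa-Tu-8902, against 2.05 in MIA PaCa-2, and HAGHL had -1.32 and -0.51. The genes near NUAK2 had smaller log2 fold changes than NUAK2, of 0.25 to 0.33 in Pa-Tu-8902, against 0.48 to 0.57 in MIA PaCa-2.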

How the data were processed

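The authors trimmed paired-end reads with Trimmomatic 0.39 and quantified them with RSEM 1.3.1, which called STAR 2.5.2a, on GRCh38 with the GENCODE release 29 annotation. The expected counts and TPM per gene, and TPM per transcript, are used as deposited by the authors, with no filter on low counts. Effective lengths deposited by the authors entered 1 alternative. RSEM shares out reads that fit several genes or transcripts, and 5.34% of the counts were not whole, so counts were rounded.

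Testing in a line took the genes that reached 10 counts in 3 or more of its libraries, and used edgeR 4.0.16 (TMM, quasi-likelihood test, R 4.3.3), with Benjamini-Hochberg adjustment over all genes tested. A gene passed at an adjusted p under 0.01 with at least 1.5-fold, the limits of the study's methods. The SE of a log2 fold change is its size divided by the root of the F statistic. The interaction was fitted over all 12 libraries. Alternatives were DESeq2 1.42.0, DESeq2 size factors, other filters, effective lengths, a replicate block, a joint fit, limma 3.58.1 on log2(TPM + 1) and each library left out. The fit was tested on simulated data.

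The 10 genes and the lists were chosen with earlier results of these data known. Genes named were the 10, GOT1, up to 3 genes per list and line (and for the interaction) with the smallest p among those that passed, and the 3 genes closest to CYR61, CTGF and NUAK2. The other target genes that passed are named beside their count; part of what the rule gave is not reported here. Libraries were assigned to lines by their deposited titles. A supplementary table of the study has columns named for Pa-Tu-8902 that hold the counts deposited for MIA PaCa-2, and EPCAM and CDH1 separate the lines as the titles do. Depth was 26226537 to 43406137 counts per library, and a count of 0 allows up to 3 counts.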

Additional observations from a re-analysis of the deposited data

Results flagged for a closer look

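Given here are 8 listed genes outside the 10 whose dox response differed between the lines by edgeR's test of the interaction. TNFRSF12A, which was named after its value was seen, also passed and is not among these 8. The limits were an adjusted p under 0.01 and at least 1.5-fold. Values are log2 fold changes in MIA PaCa-2 minus those in Pa-Tu-8902. AXL differed by 2.46, FLNA by 1.46, FRMD6 by 1.25, SAV1 by 0.86 and TEAD4 by 0.60, all more positive in MIA PaCa-2. FAT4 differed by -3.38, CCDC80 by -1.46 and TEAD2 by -0.82, all more positive in Pa-Tu-8902. SAV1, the scaffold of the MST kinases, had log2 fold changes of -0.46 in Pa-Tu-8902, against 0.40 in MIA PaCa-2, while TEAD4, another DNA-binding partner of YAP1, had -0.39 and 0.22. CCDC80, a secreted matrix protein, had 1.46 in Pa-Tu-8902, against 0.002 in MIA PaCa-2. The FRMD6 value rests on 15.8 ± 5.10 normalized counts in untreated MIA PaCa-2 libraries (SD, n = 3). No cause of these differences was tested.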

How the results depend on the processing

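In Pa-Tu-8902 2 of the 10 genes rose and 1 fell under every alternative, with log2 fold changes of -1.40 to -0.82 for CTGF, 0.78 to 0.88 for ANKRD1 and 0.84 to 1.60 for NUAK2. In MIA PaCa-2 CYR61 ranged from 1.89 to 1.96, NUAK2 from 1.87 (limma on TPM) to 3.41 and TEAD1 from 0.58 to 0.82. Those of AMOTL2 in Pa-Tu-8902 (-0.002 to 0.11) and AJUBA in MIA PaCa-2 (-0.15 to 0.02) crossed 0. With limma on log2(TPM + 1), 6 other target genes passed in Pa-Tu-8902 in place of 10, 1 pathway component in MIA PaCa-2 in place of 2, 2 other target genes there in place of 3, and 1082 genes in all in MIA PaCa-2 in place of 1751; the cause was not tested. The difference between the lines for TEAD4, at 0.60, dropped under 1.5-fold in 7 alternatives (down to 0.53): both other filters, and without untreated replicate 3 or dox replicate 1 of Pa-Tu-8902 or untreated replicate 2, dox replicate 1 or dox replicate 2 of MIA PaCa-2. That for FRMD6 missed the adjusted p of 0.01 in 3, with 1.01 and 0.0472 (adjusted p) under effective lengths, 0.69 with limma on TPM, and 1.12 and 0.0112 without dox replicate 3 of MIA PaCa-2. On log2(TPM + 1), which shrinks the changes of low genes, FAT4 had 1.07 in Pa-Tu-8902 and a difference of -1.18, and FRMD6 in Pa-Tu-8902, at -0.55, no longer passed. FAT4 in MIA PaCa-2 passed in 5 alternatives, DESeq2 among them. Without untreated replicate 2 of MIA PaCa-2, TEAD3 went to 0.52 and FAT4 to -1.12.

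Residuals of same-numbered libraries correlated at -0.09 to 0.14, and those of differently numbered libraries at -0.24 to 0.14. These few values cannot settle whether equal numbers mark paired libraries, so a replicate block was fitted as an alternative. With a replicate block 2380 genes passed in Pa-Tu-8902, against 1735 in MIA PaCa-2. Of the 10 genes, 2 rose and 1 fell in Pa-Tu-8902 under the block. With 3 libraries per group, a change under 1.5-fold was not counted, and low untreated counts of NUAK2 and CTGF limit the precision of their folds.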
